A study of Mus musculus with 24 samples.

Results

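Peroxiredoxins, glutathione peroxidases and superoxide dismutases are the enzymes that remove superoxide and peroxides in mouse cells, and their transcripts were followed here in ovaries of 2 lines of mice, FL1, selected for fertility, and DUKsi, its control. The members are 10 named genes, Prdx1, Prdx2, Prdx3, Prdx5, Prdx6, Gpx1, Gpx3, Gpx4, Sod1 and Sod2, a part of these families that was listed by name, and the rule held no threshold on their signals. In the annotation used here 8 of these 10 genes had a probe set, 17 probe sets in all, among 12393 genes and 22626 probe sets of the array. Prdx5 and Prdx6 were not analysed here. A probe set is a group of short oligonucleotides on the Affymetrix mouse expression array that together measure 1 transcript, and its signal has no meaning relative to that of another probe set. The 5 probe sets of Prdx1 are annotated to Prdx1 together with the pseudogene Gm21399, so that their signals could come from both, whereas the other 12 are annotated to 1 gene each.

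FL1 is an outbred line of mice selected to generation 130 on an index of litter size and litter weight at birth. The control, DUKsi, goes back to the founders that FL1 has, without selection, and in it brothers were mated to sisters over some 36 generations. Selection in FL1 and inbreeding in DUKsi therefore cannot be told apart in a comparison of the lines. Both ovaries of untreated virgin females, 6 to 9 weeks old and at metestrus, had been processed together, and RNA of 30 animals per line had been combined into 6 pools, with 5 animals per pool in the methods and 6 in the labels. Each pool was hybridized to 2 arrays, the values of which were averaged, so that n is 6 pools per line throughout, and this number limits the precision. As p-values were computed over pools, they measure the spread between pools and not that between animals.

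Superoxide, which leaks from the respiratory chain and from steroid-producing P450 enzymes, is turned into hydrogen peroxide by the superoxide dismutases. The peroxide is then reduced by peroxiredoxins, which take their electrons from thioredoxin, and by glutathione peroxidases, which take them from glutathione. In the ovary these enzymes are known from follicles, where ovulation resembles an inflammation, and from corpora lutea, whose cells make progesterone in mitochondria rich in P450 enzymes.

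Promoters are shown for Prdx3, Gpx3 and Prdx1, the 3 genes with a probe set that passed the test described below. That of Sod1, which did not pass it, is shown as well. Windows of 300 bases were taken from RefSeq on the GRCm38.p6 assembly, 250 before and 50 after the start of the transcript. Prdx3 lies on chromosome 19 and its window is chr19:60874489-60874788 on the minus strand. For Gpx3 the window is chr11:54902604-54902903, for Prdx1 chr4:116685349-116685648 and for Sod1 chr16:90220512-90220811, all on the plus strand. Capitals mark matches of TGACNNNGC, the core of the antioxidant response element, searched on both strands.
Prdx3: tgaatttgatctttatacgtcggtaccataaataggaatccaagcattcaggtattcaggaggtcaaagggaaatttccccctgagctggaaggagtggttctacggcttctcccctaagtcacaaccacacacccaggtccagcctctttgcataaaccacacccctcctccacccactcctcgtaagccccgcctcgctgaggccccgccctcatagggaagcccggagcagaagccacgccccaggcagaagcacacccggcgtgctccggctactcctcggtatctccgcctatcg
Gpx3: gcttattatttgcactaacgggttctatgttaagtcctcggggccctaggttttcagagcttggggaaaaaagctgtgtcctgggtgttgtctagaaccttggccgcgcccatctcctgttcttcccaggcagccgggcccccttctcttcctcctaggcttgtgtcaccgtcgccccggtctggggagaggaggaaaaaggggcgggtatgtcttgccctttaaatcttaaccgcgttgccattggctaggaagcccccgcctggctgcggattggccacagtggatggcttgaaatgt
Prdx1: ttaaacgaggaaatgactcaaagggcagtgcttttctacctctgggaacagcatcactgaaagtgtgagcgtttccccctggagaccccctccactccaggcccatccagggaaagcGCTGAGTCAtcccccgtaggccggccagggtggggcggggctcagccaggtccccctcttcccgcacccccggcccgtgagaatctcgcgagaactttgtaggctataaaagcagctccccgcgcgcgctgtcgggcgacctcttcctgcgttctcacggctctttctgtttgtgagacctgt
Sod1: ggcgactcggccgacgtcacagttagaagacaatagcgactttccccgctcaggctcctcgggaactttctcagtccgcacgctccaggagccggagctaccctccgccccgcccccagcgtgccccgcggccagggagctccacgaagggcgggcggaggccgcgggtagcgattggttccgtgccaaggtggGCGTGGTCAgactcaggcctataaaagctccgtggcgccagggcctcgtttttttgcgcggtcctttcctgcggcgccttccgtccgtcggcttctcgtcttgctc
Of 12 promoter windows of 9 member genes, 2 held a match of TGACNNNGC, against 12.4% of the 32851 mouse promoters of the same length. Both matches lie in windows printed above, so that the printed windows do not stand for all 12. One was in Prdx1, as GCTGAGTCA with its first base at position -133 from the start, and the other in Sod1, as GCGTGGTCA at position -56, both on the opposite strand to the one printed. The second motif searched, AAGGTCA, the site bound by the Nr5a receptors, was in 0 of the 12 member windows and in 4.72% of all promoters. AAGGTCA read on its other strand holds the letters TGAC of the first motif, so that matches of both can overlap, and a match describes the sequence alone.

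All values are signals that had been scaled array by array to 1 target level, and the lines were compared on log2 values of the 12 pools with limma over all probe sets, with Benjamini-Hochberg adjustment. A probe set rose or fell when its adjusted p was under 0.01, and it was called when the ratio of the mean signals was also at least 1.5. Among the 17 probe sets 3 rose in FL1, 0 fell and 14 did not pass the test. Of all probe sets tested 1.83% rose and 1.55% fell, 3.38% together. With arrays scaled to the same median, 5 of the 17 rose and 0 fell, against 2.8% of all probe sets that rose and 1.01% that fell. With all 24 arrays and pools as random blocks, 5 of the 17 rose and 0 fell as well, against 3.09% of all probe sets that rose and 2.55% that fell. Both probe sets called, those of Prdx3 and Gpx3, were higher in FL1, where 1.24% of all probe sets were called higher and 2.32% in either direction. In 3 probe sets all FL1 pools were above all DUKsi pools, as in 2.24% of all probe sets, and in 0 all were below, as in 2.39%. At an adjusted p under 0.05 by limma, 6 probe sets were higher and 0 lower, against 3.5% of all probe sets higher and 6.91% in either direction. At an unadjusted p under 0.05, 10 were higher and 0 lower, against 8.25% of all probe sets higher and 11.5% lower. By the methods' t-test with adjustment 3 rose and 0 fell, against 1.13% of all probe sets that rose and 1.11% that fell. The median log2 fold change of the 17 probe sets was 0.25 and 82.4% were positive, whereas over all 22626 probe sets the median was -0.07 and 38.3% were positive. The median signal of a pool was itself lower in FL1, 221 ± 7.98 against 235 ± 4.95 in DUKsi (exact permutation test, two-sided, p = 0.0108). With arrays scaled to the same median, the median log2 fold change was 0.34 for the 17 and 0.02 for all probe sets.

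**Figure D1:**
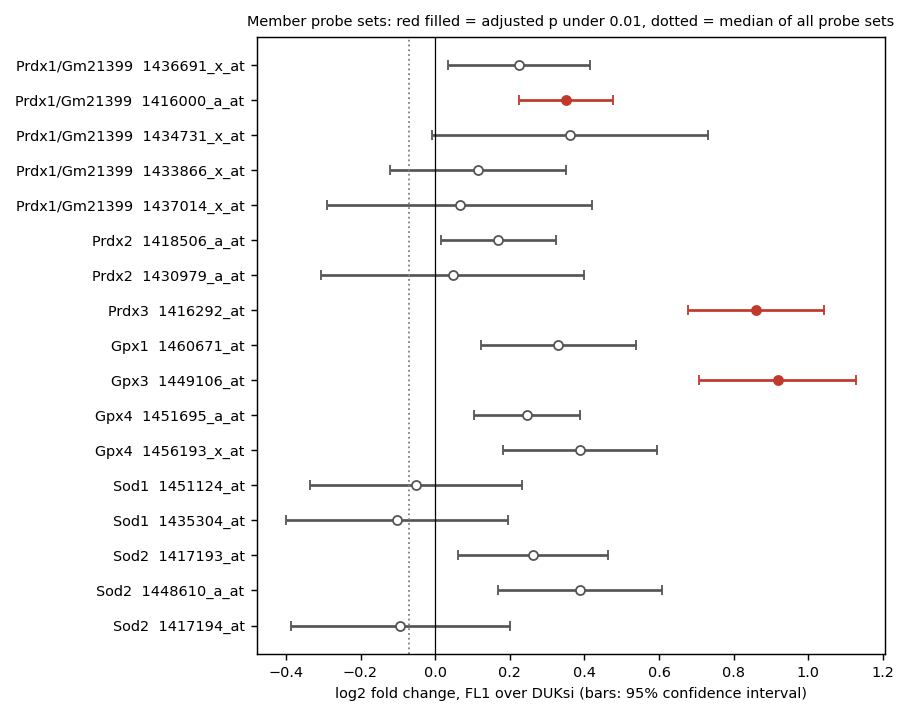
Log2 fold change, FL1 over DUKsi, of the 17 probe sets, with the 95% confidence interval of the limma fit as bars. Filled red points mark an adjusted p under 0.01 and the dotted line the median of all probe sets, -0.07. The points of Prdx3, 0.86, and Gpx3, 0.92, stand to the right of all others.

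Within the peroxiredoxins the largest difference was found for Prdx3, the peroxiredoxin of the mitochondria. Its signal was 3082 at the lowest, 3586 at the median and 4240 at the highest in FL1 pools, against 1725, 2022 and 2077.5 in DUKsi pools. The ranges of the lines did not overlap. The highest signals were those of FL1 pools 2 and 1, and the lowest was that of DUKsi pool 6. The signal averaged 3615 ± 498 in FL1 pools, against 1979 ± 130 in DUKsi pools (SD, n = 6 each), a ratio of 1.83. The log2 fold change was 0.86 with a standard error of 0.0857 (limma, adjusted p = 8.88e-06), at rank 90 of the 22626 probe sets by p. Relative to the mean, the pools varied by 13.8% in FL1 and by 6.57% in DUKsi, and the arrays of a pool by an SD of 0.0741 on the log2 scale. The spread of the arrays was smaller than that of the pools, 0.157 on the same scale. Here and below, the SD between arrays is that of a single array, whereas that between pools is of means of 2 arrays. As these are RNA pools of whole ovaries, more cells of a type that has the transcript and more transcript per cell cannot be told apart, here and in all that follows.

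Prdx1, a peroxiredoxin of the cytosol, and its pseudogene Gm21399 were measured by 5 probe sets. With probe set 1416000_a_at the signal was 8961 at the lowest, 9410.4 at the median and 10651 at the highest in FL1 pools, against 6962, 7441 and 8039 in DUKsi pools. Again the lines did not overlap, with FL1 pool 6 on top and DUKsi pool 6 at the bottom. The signal averaged 9528 ± 598 in FL1 pools, against 7469 ± 390.1 in DUKsi pools (SD, n = 6 each), 1.28 times as high in FL1, and the log2 fold change was 0.35 with a standard error of 0.0591 (limma, adjusted p = 0.00139). It rose, but its ratio stayed under 1.5, and with the second array of each pool alone or with quantile normalization it missed the threshold (limma, adjusted p = 0.0569 and 0.0164). The brightest of the 5, 1436691_x_at, had 8237, 10521 and 12283 in FL1 pools, against 7736, 8832 and 9607 in DUKsi pools as lowest, median and highest signal. Here FL1 pools 1 and 2 lay among the DUKsi pools, and the log2 fold change of 0.22 did not pass the test (limma, adjusted p = 0.167). For the remaining 3 the log2 fold changes were 0.36, 0.11 and 0.07 with adjusted p-values from limma of 0.265, 0.617 and 0.870. All 3 overlapped between the lines, and all 3 varied more between pools than 1416000_a_at did. For example, 1434731_x_at had an SD of 0.36 on the log2 scale between pools of a line and of 0.35 between arrays of a pool, against 0.0817 and 0.102 for 1416000_a_at.

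Prdx2, the other cytosolic peroxiredoxin measured and an abundant protein of red blood cells, did not pass the test with either probe set. With the brighter one, 1418506_a_at, the signal was 4005 at the lowest, 4586 at the median and 5069.7 at the highest in FL1 pools, against 3594, 4141 and 4240.2 in DUKsi pools. The upper FL1 pools exceeded all DUKsi pools, the lower ones lay among them, and FL1 was higher in 28 of the 36 possible pairs of pools. The log2 fold change was 0.17 (limma, adjusted p = 0.202). The dim probe set 1430979_a_at, with a mean of 138 in FL1 and 135 in DUKsi, gave 0.05 (adjusted p = 0.911).

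**Figure D2:**
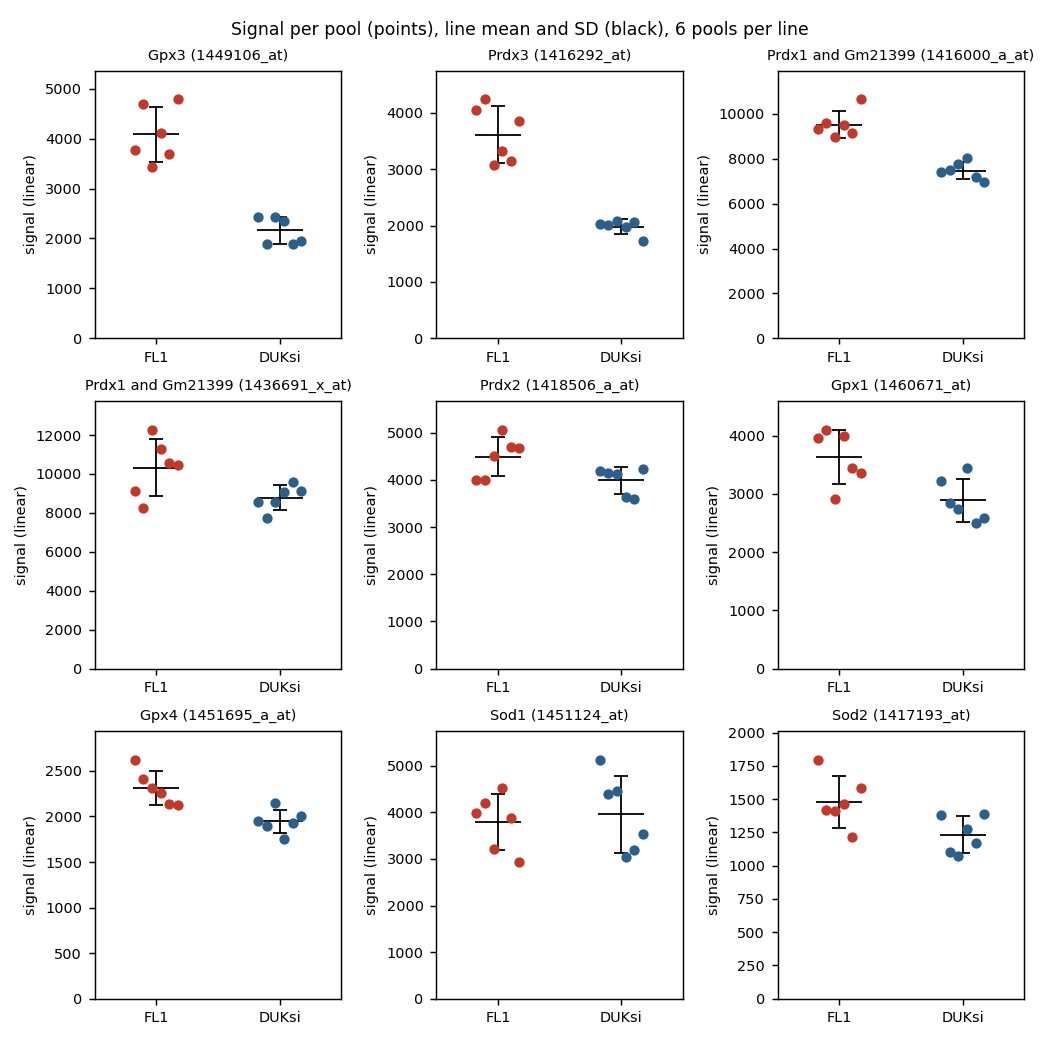
Signal of each pool (points, linear scale from 0) in FL1 (left) and DUKsi (right) for the brightest probe set of each of the 8 genes and for probe set 1416000_a_at of Prdx1 and Gm21399, with the line mean and SD in black (n = 6 pools). In Gpx3, Prdx3 and 1416000_a_at all FL1 pools are above all DUKsi pools, and in the 6 other panels the lines overlap.

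Among the glutathione peroxidases Gpx3 differed most. Gpx3 is the secreted, selenium-containing form that is found in plasma. Its signal was 3439 at the lowest, 3948 at the median and 4787 at the highest in FL1 pools, against 1883, 2153 and 2439 in DUKsi pools. The lowest FL1 pool, pool 3, was above the highest DUKsi pools, pools 1 and 3, and the highest values belonged to FL1 pools 6 and 2. The signal averaged 4084 ± 554 in FL1 pools, against 2160.5 ± 277 in DUKsi pools (SD, n = 6 each), a ratio of 1.89. The log2 fold change of 0.92 had a standard error of 0.0989 (limma, adjusted p = 2.1e-05), at rank 109 by p. In contrast to Prdx3, Gpx3 varied by similar shares in both lines, 13.6% in FL1 and 12.8% in DUKsi.

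Gpx1, the glutathione peroxidase of cytosol and mitochondria, had signals of 2916, 3703 and 4105 in FL1 pools as lowest, median and highest, against 2497, 2786 and 3451 in DUKsi pools. Only FL1 pool 3 and the lower FL1 pools 5 and 6 reached into the range of DUKsi, and FL1 was higher in 32 of 36 pairs of pools. With a mean of 3629.8 ± 467 in FL1 pools, against 2887 ± 374 in DUKsi pools (SD, n = 6 each), and a log2 fold change of 0.33, Gpx1 did not pass the test (limma, adjusted p = 0.0555). Without FL1 pool 3 and DUKsi pool 4, the lowest FL1 and the highest DUKsi pool, the log2 fold change was 0.44 and passed it (limma, adjusted p = 0.00423). Without DUKsi pool 5 it was 0.29 and did not (limma, adjusted p = 0.132).

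Gpx4, the form that reduces lipid peroxides in membranes, had 2 probe sets, and neither passed the test. In 1451695_a_at the signal was 2125.5 at the lowest, 2287 at the median and 2622 at the highest in FL1 pools, against 1755, 1942 and 2145.5 in DUKsi pools. The lines met only at the edge of their ranges, with FL1 higher in 34 of 36 pairs of pools for both probe sets. The log2 fold change was 0.25 for 1451695_a_at (limma, adjusted p = 0.0365) and 0.39 for 1456193_x_at (limma, adjusted p = 0.0236). Without DUKsi pool 3, its highest DUKsi pool, that of 1456193_x_at was 0.44 and passed the test (limma, adjusted p = 0.00981). With the second array of each pool alone it was 0.39 and did not (limma, adjusted p = 0.19). For 1451695_a_at it was 0.14 with the first array alone (limma, adjusted p = 0.437). In both probe sets the SD of a single array, 0.153 and 0.275 on the log2 scale, exceeded that between pools, 0.105 and 0.181. As a pool is the mean of 2 arrays, these values are not like measures.

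Sod1, the copper and zinc superoxide dismutase of the cytosol, was the member with the least difference. In FL1 pools its signal was 2934 at the lowest, 3934 at the median and 4525 at the highest, against 3044, 3965 and 5130.4 in DUKsi pools. The ranges covered each other, and FL1 was higher in 16 of 36 pairs of pools. The log2 fold change was -0.05 with a 95% confidence interval of -0.34 to 0.23 (limma, adjusted p = 0.872), and it was -0.10 in the dimmer probe set 1435304_at (adjusted p = 0.735). The sign of the first turned to 0.04 when the arrays were scaled to the same median.

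Sod2, the manganese superoxide dismutase of the mitochondria, had 3 probe sets, none of which passed the test. In the brightest, 1417193_at, the signal was 1212, 1444 and 1796 in FL1 pools as lowest, median and highest, against 1076, 1223 and 1389.6 in DUKsi pools. FL1 pool 5 was the only FL1 pool within the range of DUKsi, and the log2 fold change was 0.26 (limma, adjusted p = 0.121). For 1448610_a_at it was 0.39 (limma, adjusted p = 0.0324). Without FL1 pool 5, its lowest FL1 pool, it was 0.47 and passed the test (limma, adjusted p = 0.00473). Without DUKsi pool 5 it was 0.37 and did not (limma, adjusted p = 0.0776). The dim probe set 1417194_at, with a mean of 145 in FL1 and 153 in DUKsi, gave -0.09 (adjusted p = 0.758).

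Whether probe sets of 1 gene gave different line differences was tested on the log2 difference between both probe sets within each pool. None of 16 such pairs had an adjusted p under 0.05 (exact permutation test, two-sided, adjusted over the 16). At an unadjusted p under 0.05 there were 2 pairs, both with the dim Sod2 probe set 1417194_at, which lay 0.36 and 0.48 below 1417193_at and 1448610_a_at on the log2 scale (exact permutation test, p = 0.0238 and 0.013, adjusted p = 0.19 for both).

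**Figure D3:**
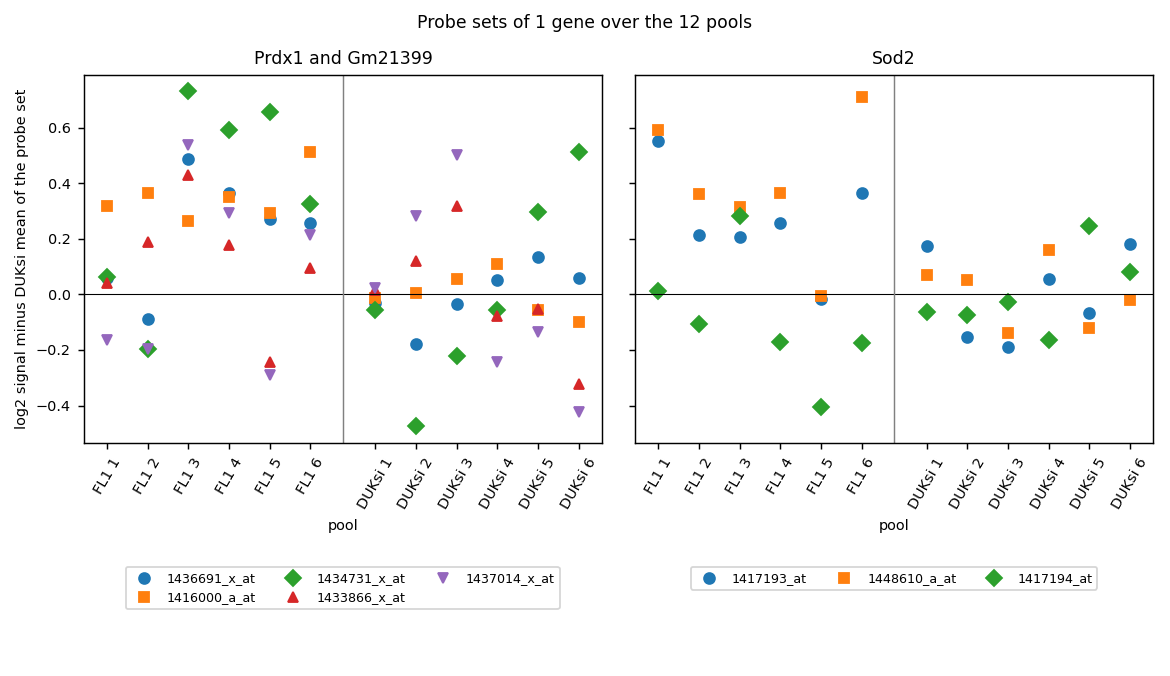
Log2 signal of each pool minus the DUKsi mean of the same probe set, for the 5 probe sets of Prdx1 and Gm21399 (left) and the 3 of Sod2 (right), with FL1 pools to the left of DUKsi pools. The orange squares of 1416000_a_at are above 0.26 in every FL1 pool, whereas the other 4 probe sets of Prdx1 scatter from pool to pool.

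To compare the genes with each other, the same test was made on the brightest probe sets of all 28 pairs of genes, a comparison chosen after the fold changes were seen. In 12 pairs the line difference differed (exact permutation test, two-sided, adjusted over the 28 pairs), and in 9 of these the lines did not overlap. These 12 were all pairs of Prdx3 or Gpx3 with one of the other 6 genes, with adjusted p-values of 0.00673 to 0.0152 and 0.00216 as the least p that 6 against 6 pools can give. As Prdx3 and Gpx3 had the largest fold changes in these same pools, the 12 pairs restate that order and are not independent results. Prdx3 exceeded Gpx1 by 0.53, Sod2 by 0.60 and Sod1 by 0.91 on the log2 scale of line differences. For Gpx3 the excess was 0.59 over Gpx1, 0.66 over Sod2 and 0.97 over Sod1. Prdx3 and Gpx3 themselves lay 0.06 apart (exact permutation test, p = 0.569). Of the 15 pairs among the other 6 genes, Gpx1 against Sod1 came nearest to the threshold, with 0.38 (exact permutation test, p = 0.0368, adjusted p = 0.0793).

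**Figure D4:**
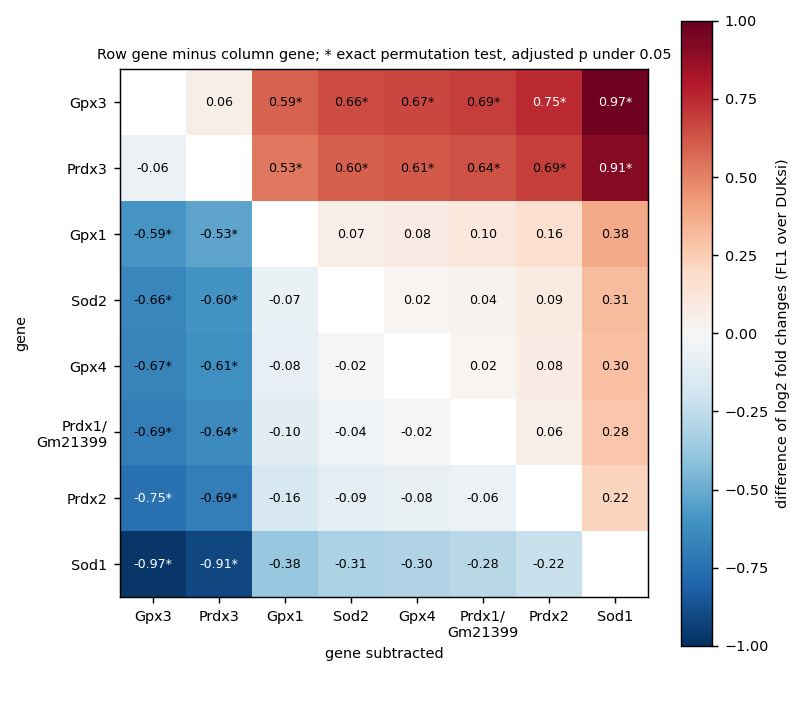
Difference of log2 fold changes (FL1 over DUKsi) between the gene of the row and that of the column, for the brightest probe set of each gene, with a star where the exact permutation test gave an adjusted p under 0.05. The stars fill the rows and columns of Gpx3 and Prdx3 and leave only the pair of both without one.

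The partners of these enzymes were taken from lists of genes, with the brightest probe set of each gene. None of 9 related genes, which were 7 other genes of the families (Prdx4, Gpx2, Gpx5, Gpx6, Gpx7, Gpx8 and Sod3), catalase (Cat) and Ccs, the copper chaperone of Sod1, passed the test (limma; 2 higher and 1 lower at an unadjusted p under 0.05, and 0 by the methods' t-test), with a median log2 fold change of 0.13. Among all probe sets 3.38% passed it, and 8.25% were higher and 11.5% lower at an unadjusted p under 0.05 by limma. Prdx4, a peroxiredoxin of the endoplasmic reticulum, averaged 2824 ± 428 in FL1 pools, against 2692 ± 242 in DUKsi pools, and Gpx7 averaged 1204 ± 67.8 in FL1 pools, against 1372 ± 128 in DUKsi pools (SD, n = 6 each). Their log2 fold changes were 0.06 and -0.19 (limma, adjusted p = 0.769 and 0.152).

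In the thioredoxin system, which feeds the peroxiredoxins, 1 of 12 measured genes rose and 0 fell, with a median log2 fold change of 0.01. The gene was Sesn3, a sestrin, with 1636 ± 205 in FL1 and 1103 ± 159 in DUKsi (limma, log2 fold change 0.57, adjusted p = 0.00225). In the glutathione system 1 of 9 genes rose and 0 fell, with a median of -0.01, and the one that rose was Ggct, an enzyme of the breakdown of gamma-glutamyl peptides, with 391 ± 25.8 in FL1 and 289.9 ± 32.3 in DUKsi (limma, 0.44, adjusted p = 0.00995). The brighter Gstp1 narrowly missed the threshold in the other direction, with 4253 ± 388 in FL1 and 5272 ± 314 in DUKsi (limma, -0.31, adjusted p = 0.0102). The list of selenoprotein synthesis, a process needed for the glutathione peroxidases Gpx1, Gpx3 and Gpx4, also held selenoproteins themselves. In it 1 of 11 genes rose, with a median of 0.06. The one that rose was Selenop, a selenoprotein and the plasma carrier of selenium, and none of the factors of the synthesis passed the test. Selenop had 8690.2 ± 639 in FL1 and 7056 ± 408 in DUKsi (limma, 0.30, adjusted p = 0.00782).

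Nfe2l2, also named NRF2, is the factor that switches on many antioxidant genes. Of 11 measured genes of its pathway 1 rose and 0 fell, with a median of -0.04, and this was Me1, the cytosolic malic enzyme that makes NADPH, with 9188 ± 1256 in FL1 and 6131 ± 1096 in DUKsi (limma, 0.59, adjusted p = 0.00557). Among 7 measured genes of superoxide sources Xdh, which codes for xanthine dehydrogenase, rose and the others did not pass the test. Xdh averaged 350.3 ± 25.7 in FL1 pools, against 183 ± 22.5 in DUKsi pools (SD, n = 6 each; limma, log2 fold change 0.94, adjusted p = 3.54e-05), and the list had a median of 0.02. In each of these 5 lists 1 gene rose by limma, against 1.83% of all probe sets that rose. By the methods' t-test with adjustment, 1 gene was higher in the glutathione list and 1 in that of superoxide sources. The count was 0 in the thioredoxin, selenoprotein and NRF2 lists, against 1.13% of all probe sets higher.

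**Figure D5:**
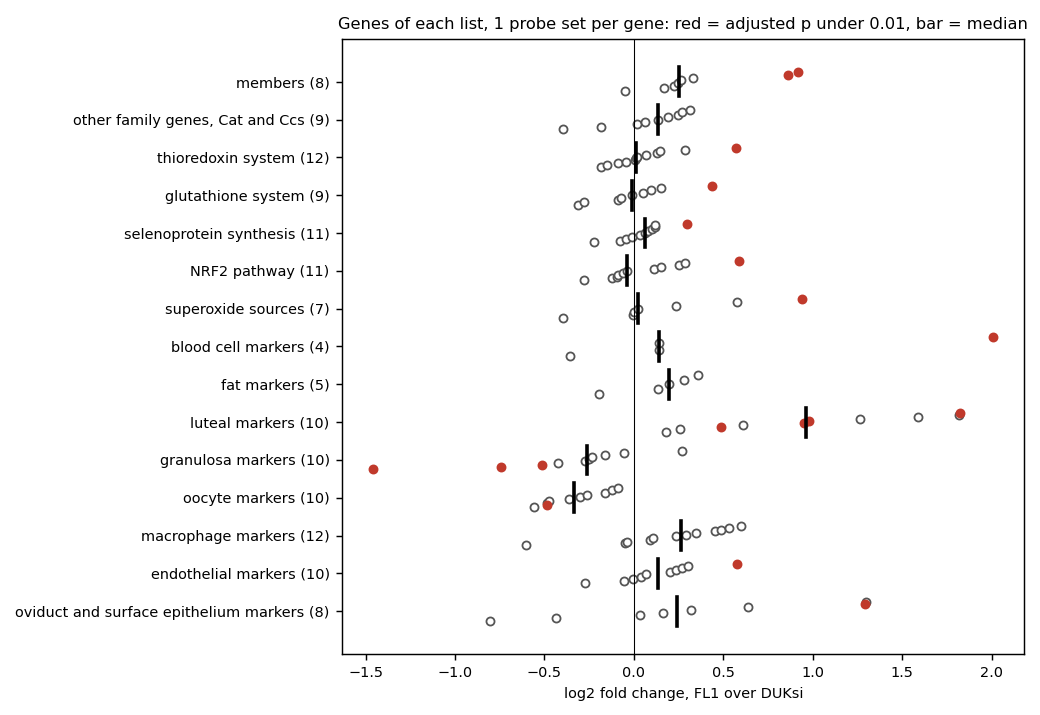
Log2 fold change, FL1 over DUKsi, of the brightest probe set of each measured gene in the member genes and 14 further lists (number of genes in brackets), with red for an adjusted p under 0.01 and a black bar at the median of the list. The medians of the thioredoxin, glutathione, selenoprotein, NRF2 and superoxide source lists lie between -0.04 and 0.06, and that of the luteal markers at 0.96.

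Several cell type markers moved with the line. Of all probe sets 1.83% rose and 1.55% fell by limma. Of 12 luteal markers 10 were measured, all with positive log2 fold changes, and 4 rose. The summed signal of these 10 was 69029 to 82256 in FL1 pools, against 37453 to 57094 in DUKsi pools. Such a sum adds signals of unlike probe sets, follows the brightest of them and does not measure an amount of cells. One of the 4 was Cyp11a1, the enzyme that makes pregnenolone, with 11047 ± 895 in FL1 pools, against 5762 ± 1422 in DUKsi pools (limma, log2 fold change 0.98, adjusted p = 0.000376). Of 10 granulosa markers measured 3 fell and 0 rose, with sums of 34278 to 41453 in FL1 pools, against 42352 to 48988 in DUKsi pools. The brightest of these 10, Inha, averaged 13644.5 in FL1 and 15297 in DUKsi and did not pass the test (limma, adjusted p = 0.169). Of 10 oocyte markers measured 1 fell and 0 rose, with sums of 7561 to 9929 in FL1 pools, against 9967 to 11775 in DUKsi pools. By the methods' t-test with adjustment, 3 luteal markers were higher, 2 granulosa markers lower and 0 oocyte markers lower. The shares over all probe sets were 1.13% higher and 1.11% lower. Thus the luteal sums and the granulosa and oocyte sums separated the lines, in opposite directions, the oocyte sums narrowly. Other sums separated them too. Those of the member genes were 32786 to 36050 in FL1 pools, against 25925 to 28926 in DUKsi pools. For the selenoprotein list they were 19167 to 21237 in FL1 pools, against 16971 to 18931 in DUKsi pools.

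Macrophage and fat markers gave 0 past the test by limma, against 3.38% of all probe sets, and 0 by the methods' t-test. At an unadjusted p under 0.05 by limma, 3 of 12 macrophage markers were higher and 1 lower, and 0 of 5 fat markers differed. The shares over all probe sets were 8.25% higher and 11.5% lower. Of the endothelial markers 1 of 10 rose, Pecam1 with a log2 fold change of 0.58 (limma, adjusted p = 0.0081), and of those of oviduct and surface epithelium 1 of 8, Upk3b with 1.29 (limma, adjusted p = 0.000182). Among 4 measured blood cell genes the dim Alas2, of heme synthesis, rose (limma, 2.01, adjusted p = 0.00782), against 1.83% of all probe sets. Alas2 averaged 51.5 in FL1 and 14.2 in DUKsi, where the 20th percentile of all signals was 48.6. Hba-a1, Hbb-b2 and Slc4a1, also dim, did not pass the test. Their log2 fold changes were -0.36, 0.14 and 0.14 (limma, adjusted p = 0.655, 0.867 and 0.881). The brightest globin probe set, annotated to both Hba-a1 and Hba-a2 and not the one used for Hba-a1 in the list, went the other way from it. This brightest one had 8229.9 in FL1 and 4674 in DUKsi (limma, 0.82, adjusted p = 0.000258).

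The 3' to 5' ratio of beta-actin, which grows when RNA is degraded, averaged 1.67 ± 0.423 in FL1 pools, against 1.27 ± 0.0522 in DUKsi pools (exact permutation test, two-sided, p = 0.00216), with 2.45 in FL1 pool 3. For Gapdh the ratio was 1.53 ± 0.420 in FL1 pools, against 1.28 ± 0.146 in DUKsi pools (exact permutation test, two-sided, p = 0.203). All FL1 pools had a higher actin ratio than all DUKsi pools, with 1.322 as the lowest in FL1 and 1.317 as the highest in DUKsi. Line and RNA quality by this ratio therefore cannot be told apart, and a fit with the ratio as a covariate does not separate them. With the actin ratio as a covariate the log2 fold change of Prdx3 was 0.997 and that of Gpx3 1.01 (limma, adjusted p = 1.25e-05 and 0.000134). With this covariate 4 of the 17 probe sets rose and 0 fell, against 2.62% of all probe sets that rose and 2.86% that fell. The median of the 17 was then 0.12, against 0.25 without it, and the brightest Prdx1 probe set, 1436691_x_at, had 0.0415, against 0.22 without it. For 1434731_x_at of Prdx1 it was 0.12, against 0.36 without the covariate. Without FL1 pool 3 the log2 fold changes of Prdx3 and Gpx3 were 0.90 and 0.965 (limma, adjusted p = 5.98e-06 and 1.5e-05). The part of luteal, granulosa, oocyte and blood cells in the differences of Prdx3, Gpx3 and Prdx1 was not tested.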

How the data were processed

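The intensity values deposited by the authors are MAS5 signals of 24 Affymetrix mouse arrays, computed with Microarray Suite 5.0 per the study's methods and scaled to a common target on a linear scale. The mean of an array was 500.1 after trimming 2% at either end, and array medians ran from 212 to 244.5. Groups were taken from the sample titles. The arrays of a pool were averaged, 64 of 22690 probe sets were left out as controls, and log2 values were fitted with limma 3.58.1 (lmFit, eBayes with trend) in R 4.3.3, which was tested on simulated signals. Of the 22626 others, 20380 had 1 gene in the platform annotation, 691 several and 1555 none.

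The members, gene lists and tests were chosen with earlier results of these data known. All probe sets of the members were described. The brightest probe set of a gene was its main one. From each list up to 4 genes past the test with the largest change were eligible to be named, or up to 2 of the brightest where none passed. Gstp1, Inha, Hba-a1, Hbb-b2 and Slc4a1 were named outside this rule. Correlations of same-numbered pools' deviations from line means ran from -0.238 to 0.115, so the numbers were not taken as pairs. Alternatives were either array alone, log2 before averaging, single arrays with pools as random blocks, other scalings, a constant before log2, a filter on dim probe sets, other tests and thresholds, covariates, and pools left out. Promoters came from RefSeq (GRCm38.p6). No protein sequence was used here.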

Additional observations from a re-analysis of the deposited data

Results flagged for a closer look

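Within each line, the highest and the lowest pool of every member probe set were compared with the nearest other pool by Dixon's ratio. Of 34 such groups 2 stood out, and chance flags about 1 in 20. For Prdx3, DUKsi pool 6 had a signal of 1725, below the next pool at 1969 (Dixon's ratio 0.693). For Gpx4, DUKsi pool 3 had 1392 with probe set 1456193_x_at, above the next pool at 1159 (ratio 0.643).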

How the results depend on the processing

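The count of called probe sets was 2, Prdx3 and Gpx3, under all alternatives run, and over 27 settings the log2 fold change of Prdx3 was 0.81 to 0.997 and that of Gpx3 0.87 to 1.01, with adjusted p-values up to 0.00176 and 0.00199. The count of probe sets that rose was 3, and became 5 with all 24 arrays and pools as random blocks (3.09% of all probe sets rose), 5 with arrays scaled to the same median (2.8%, against 1.83% without) and 6 at an adjusted p under 0.05 (3.5%), while leaving out 1 pool gave 3 to 4. With the pool number as a replicate block it was 2, since 1416000_a_at of Prdx1 had an adjusted p of 0.0116; it also missed the threshold with the second array alone (0.0569), quantile normalization (0.0164) and no trend (0.0108). Gpx1 passed with all 24 arrays (0.00451) and with the actin ratio as a covariate (0.00613). Signs turned only in values that did not pass the test. With the first array alone 1433866_x_at and 1437014_x_at of Prdx1 were -0.0031 and -0.0722, and with the actin covariate -0.0499 and -0.27. Leaving out 1 pool, 1437014_x_at ran from -0.0289 (without FL1 pool 3) to 0.166, also below 0 without DUKsi pool 6 (-0.0191), and without FL1 pool 3 and DUKsi pool 4 it was -0.0774. Prdx2 1430979_a_at was -0.18 with the covariate, and with 1 pool left out -0.0492 (without DUKsi pool 1) to 0.117, with -0.006 without FL1 pool 3. Sod1 1451124_at was 0.0034 with the second array, 0.0362 with median scaling, 0.12 with the covariate, and with 1 pool left out -0.12 to 0.0282 (without DUKsi pool 1), with 0.0189 without FL1 pool 6. Sod2 1417194_at was 0.0268 with quantile normalization. The causes were not tested. Either array alone or 1 pool left out, the settings run for pairs, gave 0 pairs of probe sets of 1 gene and 12 to 13 pairs of genes. Signals near the dim end, as of 1430979_a_at and 1417194_at, limit what can be seen.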

Other observations

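The genes on either side of the members were looked up, up to 2 measured genes in each direction by order on GRCm38.p6. Of 32 neighbours 0 passed the test (limma), against 3.38% of all probe sets, and 0 did by the methods' t-test. At an unadjusted p under 0.05 by limma, 3 were higher and 4 lower, against 8.25% of all probe sets higher and 11.5% lower. Beside Prdx3, Sfxn4 had a log2 fold change of 0.15 and Grk5 of -0.01 (limma, adjusted p = 0.693 and 0.960). Beside Gpx3, Hint1 had -0.01 and Tnip1 0.18 (limma, adjusted p = 0.956 and 0.363).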
